A study of Rattus norvegicus with 12 samples.

Results

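The spared-nerve injury (SNI) of the rat was set against Sham surgery in lumbar dorsal root ganglia (DRG), with both variants of the injury taken as a single group. All 12 arrays of the series entered, 8 from SNI and 4 from Sham. The animals were adult male Sprague-Dawley rats of up to 300 g, whose ganglia were taken at Day 23 after perfusion to clear the blood. Each variant of the injury is named for the branch of the sciatic nerve that stayed intact, sural or tibial, while both remaining branches were cut. Sham rats kept all branches. Each array held the RNA of an individual ganglion, and each of the 3 groups had 2 L3-DRG and 2 L4-DRG, numbered 1 and 2. The pooled comparison asks which microRNAs (miRs) differed from Sham whichever branch had been spared. In the rat most sensory neurons of the sciatic nerve lie in L4-DRG and L5-DRG, and L3-DRG supplies mainly the saphenous nerve, which the surgery does not cut. The labels do not say whether the L3-DRG and L4-DRG of a number came from the same rat, so the p-values measure the spread between these arrays.

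DRG hold the cell bodies of primary sensory neurons, each wrapped in satellite glia, together with Schwann cells, vessels, connective tissue and macrophages. A miR is a short RNA that guides a silencing complex to messenger RNAs, mostly through the bases of its seed near the 5′ end, and lowers their translation and stability. Cutting a peripheral axon is known to turn sensory neurons from transmission to a growth program, in which miRs such as miR-222 and miR-132 have been studied. In a whole ganglion, fewer cells of a type and less RNA per cell cannot be told apart.

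The 16 mature sequences below are those the comparison turns on, the 10 miRs that were higher in SNI at an unadjusted p under 0.05 and relatives that share a seed or a cluster with them. They were taken from RefSeq (rat build GRCr8), which matched 112 of the 154 miRs by name. The seed, bases 2 to 8 counted from the 5′ end, is in capitals.
miR-222: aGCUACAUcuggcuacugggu
miR-340-5p: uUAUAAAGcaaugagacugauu
miR-17: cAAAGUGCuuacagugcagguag
miR-20a: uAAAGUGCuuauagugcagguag
miR-19a: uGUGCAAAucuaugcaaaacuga
miR-19b: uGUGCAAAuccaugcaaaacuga
miR-92a: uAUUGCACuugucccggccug
miR-132: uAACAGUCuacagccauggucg
miR-449a: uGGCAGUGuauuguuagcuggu
miR-34a: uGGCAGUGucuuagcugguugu
miR-16: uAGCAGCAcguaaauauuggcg
miR-15b: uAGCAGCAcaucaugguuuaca
miR-195: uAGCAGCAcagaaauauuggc
miR-497: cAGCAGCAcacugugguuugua
miR-365: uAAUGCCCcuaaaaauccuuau
miR-28: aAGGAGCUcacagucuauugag
The 112 miRs carried 82 distinct seeds. The seeds of miR-222, miR-340-5p, miR-132, miR-365, miR-28 and miR-92a were each found in no other matched miR. In the annotation miR-222 lies at chrX:6022682-6022702 on the plus strand and miR-340-5p at chr10:34894668-34894689 on the plus strand. MiR-17, miR-19a, miR-20a, miR-19b and miR-92a lie in that order along chr15:98587861-98588622 on the plus strand, as parts of the miR-17-92 cluster. The mature miR-17 and miR-92a also have a copy on chromosome X, so an assay cannot tell which locus its molecules came from.

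The value used for a miR on an array is −ΔCt. Ct is the PCR cycle at which a well passes the fluorescence threshold, and −ΔCt is the mean Ct of MammU6, snoRNA135 and U87, the small RNAs used as references, minus the Ct of the miR. It is on a log2 scale and is read between arrays for a given miR, not between miRs. The log2 difference of an SNI array is its −ΔCt minus that of the Sham array of its DRG level and number, and the value of a miR is the mean over the 8 SNI arrays, fitted with limma with level and number as a block of 4. The mean Ct of the miRs of an array ran from 27.2 to 30.5, and averaged 29.9 over the arrays of number 1 and 27.8 over those of number 2. The block takes up this gap. Beside the limma p of a miR stands that of a two-sided exact permutation test, in which the Sham label was moved among the 3 arrays of each block (81 arrangements, no p below 0.0123). Over the 154 miRs, 10 had an exact permutation p under 0.05 and 5 of them had the smallest possible. They are not the same 10 as those of limma given below. By the exact permutation p, miR-29a (0.0370) and miR-195 (0.0494) were among them, and miR-449a (0.0617) and miR-365 (0.0741) were not. MiR-182 and miR-183, which mark sensory neurons, are among the 154 miRs, all of which were kept because they were detected on all 12 arrays.

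No miR passed the test after Benjamini-Hochberg adjustment over the 154 miRs (0 of 154, 0%), and the smallest adjusted p in limma was 0.330. At an unadjusted p under 0.05, 10 miRs (6.49%) were higher in SNI and 0 (0%) were lower, against 7.7 in either direction if p-values were evenly spread. The 10 were miR-222, miR-340-5p, miR-17, miR-92a, miR-132, miR-449a, miR-16, miR-365, miR-19a and miR-28. Their differences ran from 0.39 to 1.34, or 1.31-fold to 2.53-fold. The mean of each was above 0 in both injuries, in both DRG levels and in both numbers. Since the 10 were picked by p on these same arrays, this adds no separate support. Over all 154 miRs, 106 were above 0 in Sural-SNI and 125 in Tibial-SNI. The count was 128 in L3-DRG and 74 in L4-DRG, and 119 and 98 in numbers 1 and 2. In 6 miRs (3.9%) all 8 SNI arrays lay above their own Sham array, in 0 miRs (0%) all 8 lay below it, and for 0 of the 154 (0%) did the 8 levels of SNI and the 4 of Sham stand apart without overlap.

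These values stand on a shared shift. Of the 154 miRs, 121 had a difference above 0 and 33 below, and the median was 0.21, or 1.16-fold. When the mean Ct of all miRs of an array was the reference instead, the median was 0.01, and the count at an unadjusted p under 0.05 became 3 higher and 4 lower in place of 10 and 0. The 3 were miR-222 (0.42), miR-340-5p (0.61) and miR-132 (0.90). The 4 were miR-129-3p (−1.06), miR-687 (−0.91), miR-217 (−0.85) and miR-182 (−0.47). The shift lay in L3-DRG, where the median of the 154 miRs on the 4 SNI arrays ran from 0.28 to 0.63, while in L4-DRG it ran from −0.08 to 0.09. Without L3-DRG Sham replicate 1 the median was 0.08. The Ct of the 3 reference assays together differed between SNI and Sham by 0.07 on average, with an SD of 0.61 over the 8 arrays, and the part of this spread in the shift was not tested.

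**Figure D1:**
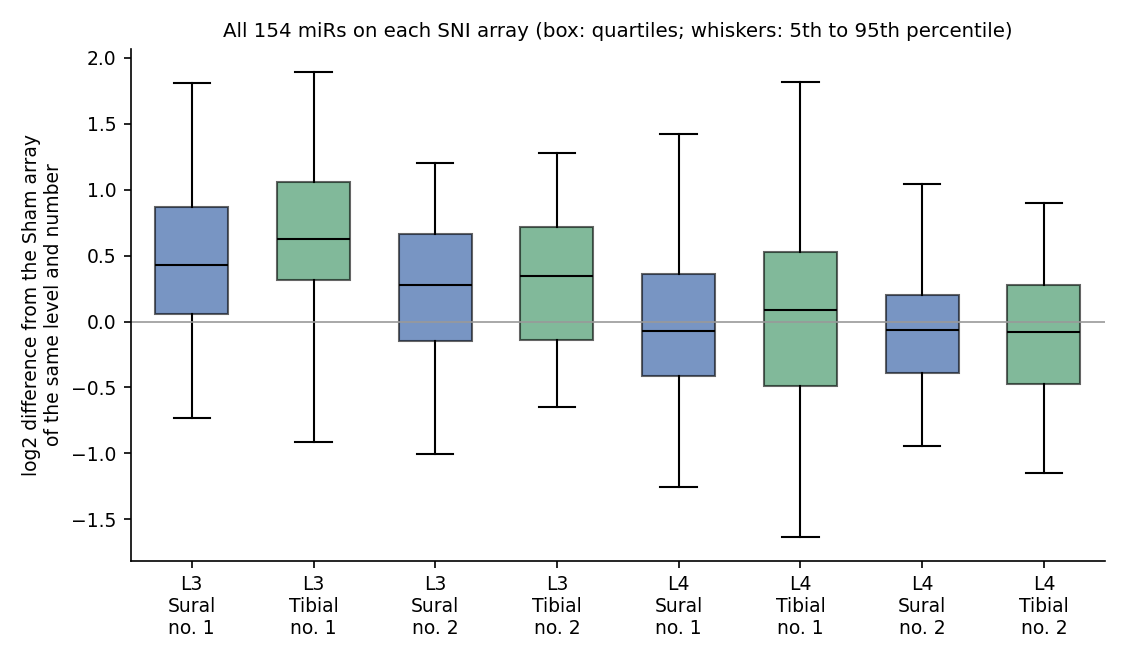
Distribution over the 154 miRs of the log2 difference of each SNI array from its own Sham array (y axis), with Sural-SNI in blue and Tibial-SNI in green. The box spans the quartiles, the line is the median and the whiskers reach the 5th and 95th percentiles. The 4 L3-DRG medians lie between 0.28 and 0.63 and the 4 L4-DRG medians between −0.08 and 0.09.

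MiR-222, which restrains the cell cycle inhibitor p27 and is studied in injured DRG neurons for its part in neurite growth, had the smallest p. Its −ΔCt on the Sham arrays was −1.75 and −1.41 in L3-DRG numbers 1 and 2 and −1.65 and −1.03 in L4-DRG. On the 8 SNI arrays it ran from −1.31 to −0.36, with a median of −0.85. Every SNI array was above its own Sham array, by 0.43 to 0.83, although the highest Sham level exceeded the lowest SNI level. The difference was 0.61 (standard error 0.15, 95% confidence interval 0.27 to 0.95), or 1.53-fold, with a limma p of 0.00252, an adjusted p of 0.330 and an exact permutation p of 0.0123. Across the design it was 0.55 and 0.68 in Sural-SNI and Tibial-SNI, 0.64 in L3-DRG and 0.59 in L4-DRG, and 0.57 and 0.65 in numbers 1 and 2. The interaction of the difference with the DRG level was −0.05 (95% confidence interval −0.70 to 0.59). Less the median of all miRs, the difference was 0.40. Its unadjusted p was under 0.05 in all 14 alternatives that kept the 12 arrays and in all 12 fits that each left out an array, where the difference ran from 0.57 to 0.65.

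MiR-340-5p was also above its own Sham array on all 8 SNI arrays. Its Sham levels were −7.10 and −6.29 in L3-DRG and −7.49 and −5.48 in L4-DRG, and its SNI levels ran from −6.34 to −5.10 with a median of −5.78. The lowest Sham levels were those of number 1, and the excess of the SNI arrays ranged from 0.05 to 1.45. The difference was 0.81 (standard error 0.22), or 1.75-fold, with a limma p of 0.00429, an adjusted p of 0.330 and an exact permutation p of 0.0123. It was 1.26 in number 1 and 0.36 in number 2. It stood 0.60 above the median of all miRs. The opposite arm of the same hairpin, miR-340-3p, which begins 42 bases downstream of the start of miR-340-5p, had a difference of 0.10.

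**Figure D2:**
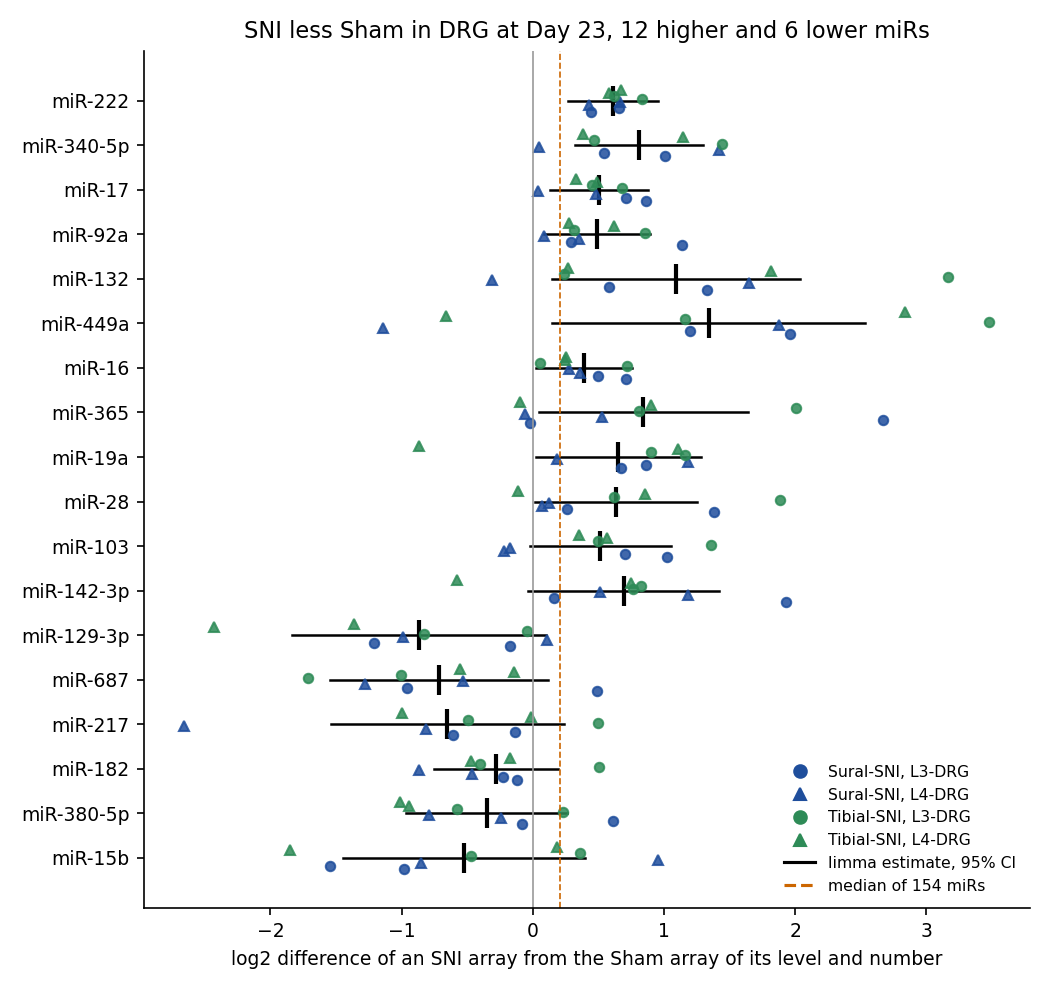
Log2 difference of each of the 8 SNI arrays from the Sham array of its DRG level and number (x axis) for the 12 higher and the first 6 lower miRs by p (y axis), with circles for L3-DRG, triangles for L4-DRG, blue for Sural-SNI and green for Tibial-SNI. The upright mark and the line are the limma estimate and its 95% confidence interval, and the dashed line is the median of the 154 miRs at 0.21. All 8 points of miR-222, miR-340-5p, miR-17, miR-92a and miR-16 lie to the right of 0.

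The miR-17-92 cluster yields several miRs from 1 transcript and is known for promoting proliferation. Of the 9 measured members of this cluster and its paralogues, 3 were higher at an unadjusted p under 0.05 and 0 were lower. Over all 154 miRs 10 (6.49%) were higher. The median of the 9 was 0.23 against 0.21 over all miRs. MiR-17 had Sham levels of −2.93 and 0.04 in L3-DRG and −2.60 and 0.21 in L4-DRG, and SNI levels from −2.25 to 0.75 with a median of −0.91. The levels split by number, and within each number all SNI arrays lay above Sham. The difference of miR-17 was 0.51 (standard error 0.17, limma p = 0.0125, exact permutation p = 0.0123), with excesses from 0.04 to 0.86, and it was 0.42 and no longer under the threshold without L3-DRG Sham replicate 1. MiR-92a had Sham levels of −4.78, −3.65, −4.47 and −3.86 in the same order and SNI levels from −4.12 to −3.34 with a median of −3.71. Its difference was 0.49 (standard error 0.18, limma p = 0.0222, exact permutation p = 0.0123), above Sham on 8 of 8 arrays, and it was 0.32 without L3-DRG Sham replicate 1 and 0.49 without L4-DRG Sham replicate 1, neither under the threshold. MiR-19a had Sham levels of −5.30, −4.84, −5.46 and −3.33 and SNI levels from −4.63 to −3.14 with a median of −4.17. Its difference was 0.65 (standard error 0.28, limma p = 0.0440, exact permutation p = 0.0494), above Sham on 7 of 8 arrays, with L4-DRG Tibial-SNI number 2 at −0.87. With each array left out in turn the difference of miR-19a ran from 0.49 (without L4-DRG Sham replicate 1) to 0.98 (without L4-DRG Sham replicate 2), and in 10 of 12 fits it was no longer under the threshold.

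The 5 miRs of the chromosome 15 cluster had differences from 0.08 to 0.65. Along the transcript they were 0.51 for miR-17, 0.65 for miR-19a, 0.08 for miR-20a, 0.22 for miR-19b and 0.49 for miR-92a. MiR-20a and miR-17 share the seed AAAGUGC, which 5 of the miRs matched to RefSeq carry, and the other matched miRs of that seed were miR-93 (0.62), miR-106b (−0.17) and miR-20b (−0.28). MiR-19a and miR-19b share the seed GUGCAAA. None of miR-20a, miR-19b, miR-93, miR-106b and miR-20b had a p under 0.05, and they were named after their values were seen because they share a cluster or a seed with miR-17 or miR-19a. Whether the members differ from each other was not tested.

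MiR-16, a miR of the cell cycle that restrains Bcl2 and cyclins, had levels of 1.98 and 2.18 in L3-DRG Sham and 2.35 and 2.23 in L4-DRG Sham. Its SNI levels ran from 2.24 to 2.72 with a median of 2.64. All 8 SNI arrays were above their own Sham array, by 0.06 to 0.72. The difference was 0.39 (standard error 0.16, limma p = 0.0391, exact permutation p = 0.0123), 0.18 above the median of all miRs, and its p was under 0.05 in only 1 of the 12 fits that left out an array, where it ran from 0.28 (without L3-DRG Sham replicate 1) to 0.44. MiR-16 shares its seed AGCAGCA with miR-195 (0.30), miR-497 (−0.42) and miR-15b (−0.53), and the remaining measured member of the family was miR-15a, at 1.51. MiR-15b begins 146 bases upstream of the start of miR-16 on chromosome 2, and was below its own Sham array on 5 of 8 arrays. Of the 5 measured members of this family, 1 was higher and 0 were lower at an unadjusted p under 0.05, with a median of 0.30. Over all 154 miRs 6.49% were higher, so 1 call among 5 says little about the family.

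MiR-132, which is induced by neuronal activity through CREB and promotes dendrite growth, was split by number. Its Sham levels were −8.37 in L3-DRG number 1, −2.12 in L3-DRG number 2, −7.58 in L4-DRG number 1 and −1.92 in L4-DRG number 2, and SNI levels ran from −7.05 to −1.54 with a median of −3.72. Of the 8 SNI arrays 7 were above their own Sham array, and L4-DRG Sural-SNI number 2 was below it, at −0.31. The difference was 1.09 (standard error 0.42, limma p = 0.0277, exact permutation p = 0.0494), or 2.13-fold. It was 1.99 in number 1, where the miR was low, and 0.19 in number 2. Without L3-DRG Sham replicate 1 it was 0.71 and without L4-DRG Sham replicate 1 it was 0.88, neither under the threshold.

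MiR-449a, a miR of ciliated epithelium with the seed of miR-34a, had Sham levels of −10.18, −8.44, −6.48 and −9.20 in the order above. Its SNI levels ran from −8.22 to −6.36 with a median of −7.26. L4-DRG Sham number 1 was the highest of the 4, and the 2 SNI arrays set against it were the only ones below Sham, at −1.14 and −0.66. The difference was 1.34 (standard error 0.54, limma p = 0.0315, exact permutation p = 0.0617), or 2.53-fold. It was 0.88 without L3-DRG Sham replicate 1 and 2.09 without L4-DRG Sham replicate 1, and it missed the threshold in 5 of the 12 fits that left out an array. MiR-449a was among the weaker signals, with a mean Ct of 32.9 over the 12 arrays. Its family as listed had 3 measured members, of which 1 was higher and 0 were lower at an unadjusted p under 0.05. The others were miR-34a at 0.38 and miR-34b-3p at 0.39. MiR-34b-3p has the seed AUCACUA and so does not share the seed of miR-449a and miR-34a. Over all 154 miRs 6.49% were higher, so 1 call among 3 says little about the family.

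MiR-365 had Sham levels of −5.40, −7.56, −6.81 and −6.88 and SNI levels from −6.97 to −4.59 with a median of −5.73. Only 5 of 8 SNI arrays were above their own Sham array. The 2 L3-DRG arrays of number 2 stood highest, at 2.67 and 2.01, both against the lowest Sham level. The difference was 0.84 (standard error 0.36, limma p = 0.0396, exact permutation p = 0.0741). Without L3-DRG Sham replicate 2 it was 0.34, and it missed the threshold in 6 of the 12 fits that left out an array. MiR-28 had Sham levels of −7.19, −5.90, −6.35 and −5.72 and SNI levels from −6.28 to −5.28 with a median of −5.62. Of its SNI arrays 7 of 8 were above Sham, and the largest excesses, 1.89 and 1.38, were taken against L3-DRG Sham number 1. The difference was 0.64 (standard error 0.28, limma p = 0.0444, exact permutation p = 0.0494). Without L3-DRG Sham replicate 1 it was 0.30, and it missed the threshold in 8 of the 12 fits that left out an array.

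**Figure D3:**
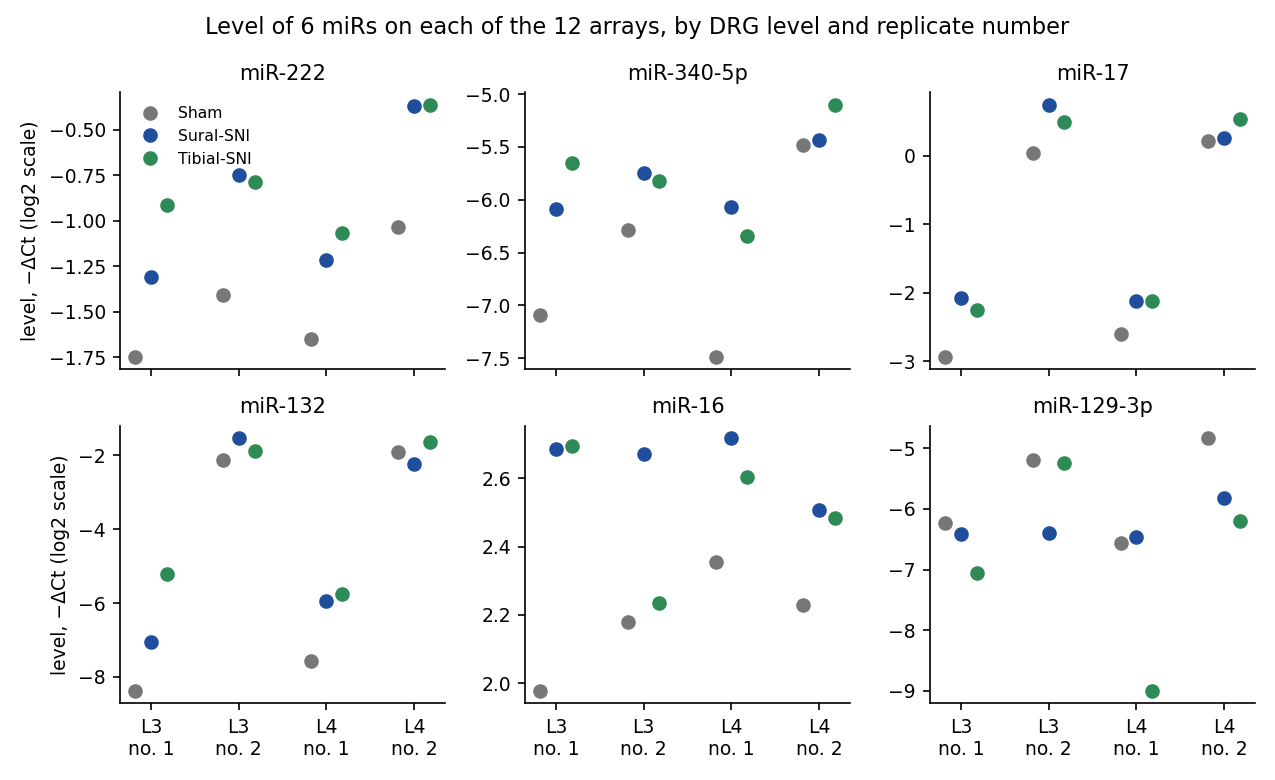
Level (−ΔCt, log2 scale, y axis) of 6 miRs on each of the 12 arrays by DRG level and number (x axis), with Sham in grey, Sural-SNI in blue and Tibial-SNI in green. For miR-222, miR-340-5p, miR-17 and miR-16 the Sham point is the lowest of the 3 in every block. MiR-17 and miR-132 also differ widely between numbers 1 and 2.

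Just outside the threshold were miR-103, with a difference of 0.52 and a limma p of 0.0591, and miR-142-3p, a miR of blood-borne cells, with 0.69 and 0.0599. With an array left out in turn they ran from 0.29 to 0.66 and from 0.48 to 0.93, both lowest without L3-DRG Sham replicate 1. MiR-196c, encoded among the HOX genes, was above its own Sham array on all 8 arrays, by 0.01 to 1.61, and had a difference of 0.47 (limma p = 0.126, exact permutation p = 0.136). The largest difference of all was that of miR-15a, at 1.51 (standard error 0.75, limma p = 0.0711, exact permutation p = 0.0864). Its Sham levels were −9.11 and −8.67 in number 1 and −2.33 and −3.65 in number 2, and the difference was 3.45 within number 1 and −0.43 within number 2. Within number 1 alone miR-15a was the single miR with an adjusted p under 0.05 in limma (0.0326). MiR-15a was a weak signal there, with its highest Ct, 35.3, on L3-DRG Sham number 1. Its pooled difference ran from 0.63 without L3-DRG Sham replicate 1 to 2.46 without L3-DRG Sham replicate 2.

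On the lower side no miR passed at an unadjusted p under 0.05. The smallest p belonged to miR-129-3p, a miR enriched in neurons. Its Sham levels were −6.24 and −5.19 in L3-DRG and −6.57 and −4.84 in L4-DRG, and SNI levels ran from −8.999 to −5.24 with a median of −6.41. It was below its own Sham array on 7 of 8 arrays, and farthest below, at −2.43, in L4-DRG Tibial-SNI number 1. The difference was −0.87 (standard error 0.43, limma p = 0.0737, exact permutation p = 0.136, 95% confidence interval −1.83 to 0.10). MiR-687 was below Sham on 7 of 8 arrays with a difference of −0.71 (limma p = 0.0854, exact permutation p = 0.111). Its assay carries a mouse name, it matched no rat sequence by name, and its highest Ct was 34.7. MiR-217, known from the exocrine pancreas, was below on 7 of 8 with −0.65 (limma p = 0.132, exact permutation p = 0.173), and its difference was −0.26 without L4-DRG Sham replicate 2. MiR-182 of the sensory neurons was below on 7 of 8 with −0.28 (standard error 0.21, limma p = 0.218, exact permutation p = 0.198). Its Sham levels lay close together at 2.02, 1.85, 1.79 and 1.81, while SNI levels ran from 0.94 to 2.53 with a median of 1.53. MiR-380-5p (−0.35), miR-15b (−0.53), miR-139-3p (−0.46), miR-382 (−0.47), miR-672 (−0.71), miR-685 (−0.99), miR-497 (−0.42) and let-7e (−0.23) followed, with limma p from 0.232 to 0.455. The −0.99 of miR-685 carries 1 array at −6.66, L3-DRG Tibial-SNI number 2, and without L3-DRG Sham replicate 2, which also removes that array's block, it was −0.046. On L3-DRG Tibial-SNI number 2 miR-685 was a weak signal, with a Ct of 37.5. The values nearest 0 were −0.097 for miR-672 and −0.17 for miR-380-5p without L4-DRG Sham replicate 2, and −0.25 for miR-15b and −0.24 for miR-382 without L4-DRG Sham replicate 1. Of 61 miRs recomputed with each array left out in turn, 46 moved by over 1.5 times in at least 1 fit.

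**Figure D4:**
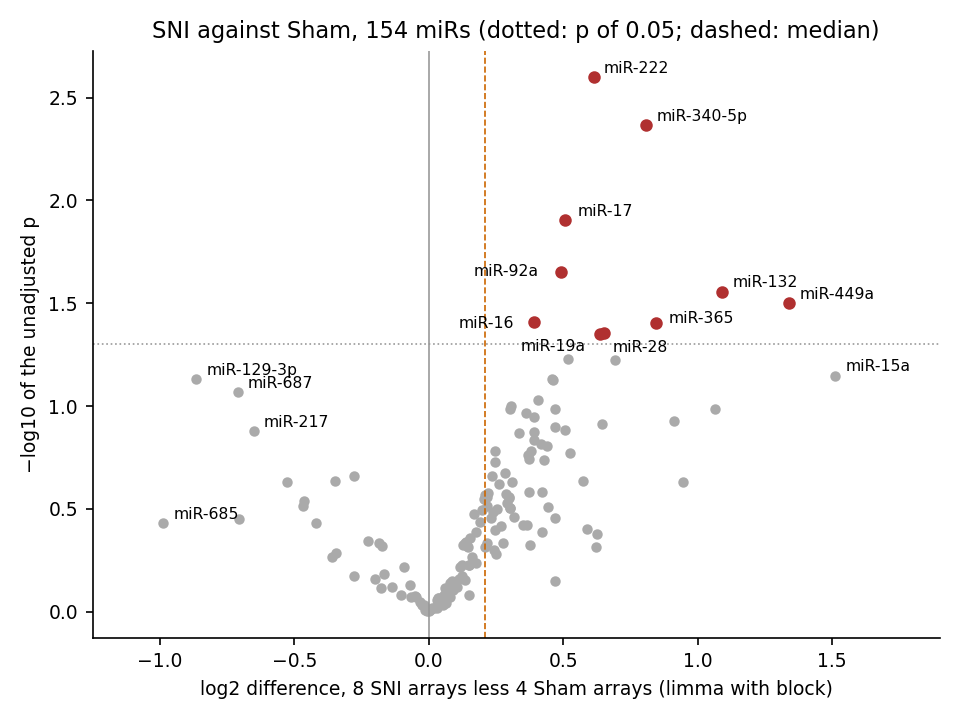
Log2 difference of SNI from Sham (x axis) against −log10 of the unadjusted limma p (y axis) for the 154 miRs, with the 10 miRs under 0.05 in red, the threshold dotted and the median difference of 0.21 dashed. All 10 red points lie on the side of higher levels in SNI, between 0.39 and 1.34.

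The 2 injuries were fitted as separate groups in the same model, and since they share the 4 Sham arrays their values are only set side by side. In Sural-SNI 9 miRs (5.84%) were higher at an unadjusted p under 0.05 and 1 lower, and in Tibial-SNI 13 (8.44%) were higher and 2 lower. None had an adjusted p under 0.05 in limma (smallest 0.377 and 0.290). MiR-340-5p was at 0.76 in Sural-SNI and 0.86 in Tibial-SNI, miR-17 at 0.52 and 0.49, and miR-92a at 0.47 and 0.52. MiR-16 was at 0.46 and 0.32, and miR-19a at 0.73 and 0.57. MiR-132 was at 0.81 and 1.37, miR-449a at 0.97 and 1.70, and miR-28 at 0.46 and 0.81. For the 10 miRs the difference between the injuries had no unadjusted p below 0.262 in limma. That of miR-222 was 0.13, with a 95% confidence interval of −0.26 to 0.52, and that of miR-340-5p was 0.11 (−0.49 to 0.70). For miR-129-3p the values were −0.57 and −1.17.

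Within L3-DRG alone 22 miRs were higher and 0 lower at an unadjusted p under 0.05, with a median of 0.36. Within L4-DRG alone 3 were higher and 4 lower, with a median of −0.02. MiR-222 was among the 3 of L4-DRG, and its p in L3-DRG was 0.0536. In L3-DRG and L4-DRG the means were 0.87 and 0.75 for miR-340-5p, 0.67 and 0.34 for miR-17, 0.65 and 0.33 for miR-92a, 1.33 and 0.86 for miR-132, 1.95 and 0.73 for miR-449a, and 0.50 and 0.29 for miR-16. For miR-365 they were 1.37 and 0.32, for miR-19a 0.90 and 0.40, and for miR-28 1.04 and 0.23. Each mean of these miRs was thus greater in L3-DRG, but no interaction with the level had an adjusted p below 0.532 among the 10 in limma. Over all miRs the median interaction was −0.43.

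Lists of miRs by cell type, pathway and gene cluster were read against the median of 0.21 and the 6.49% of all miRs that were higher. Of 4 measured miRs linked to axotomy and axon regeneration, 2 were higher (miR-222 and miR-132) and 0 lower at an unadjusted p under 0.05. The others were miR-431 at 0.43, which lies in the Dlk1-Dio3 cluster, and miR-26a at 0.21, and the median was 0.52. The 3 lists that held the other calls are described above. In each of the remaining lists 0 members were higher and 0 lower at this threshold.

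Among markers of leukocytes all 6 measured miRs were above 0, as were 121 of all 154, and the median was 0.25. Beside miR-142-3p they included miR-223 of myeloid cells at 0.52, miR-150 of lymphocytes at 0.25, miR-342-3p at 0.25 and miR-155 at 0.06. Without L3-DRG Sham replicate 1 miR-223 was at 0.10. Their summed level ran from 1.97 to 2.46 on the Sham arrays and from 2.11 to 2.87 on the SNI arrays. The summed level of a list is the log2 of the sum of 2 to the power of −ΔCt over its miRs. It is weighted toward the assays with the lowest Ct, so it is read only between arrays and is not an amount of a cell type. The 4 markers of fibroblasts and connective tissue had a median of 0.23, with miR-214 at 0.39 and miR-29a at 0.31, and summed levels of 0.51 to 1.495 in Sham and 0.83 to 1.67 in SNI. The 2 epithelial miRs, miR-200c at 0.46 and miR-203 at 0.26, had summed levels of −5.09 to −4.59 in Sham and −4.80 to −4.14 in SNI. The part of these cells in the differences of the 10 miRs was not tested.

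The 2 markers of vascular smooth muscle, miR-143 (0.37) and miR-145 (0.24), had a median of −0.18 in Sural-SNI and 0.79 in Tibial-SNI. The 4 assays of skeletal muscle miRs had medians in the same order, −0.51 and 0.72, so that the pooled median was 0.06. Singly they were at 0.15 for the rat assay of miR-1, −0.14 for its mouse assay, 0.06 for miR-133a and 0.05 for miR-133b. Their summed level spread more in SNI, from −0.17 to 4.41, than in Sham, from 0.59 to 1.73. A single array, L4-DRG Tibial-SNI number 1, stood at 3.91 and 1.37 with the rat and mouse miR-1 assays, at 2.73 for miR-133a and at 2.38 for miR-133b. Without it the Tibial-SNI median of the 4 assays was −0.14 in place of 0.72. No member of either muscle list had an adjusted p under 0.05 for the difference between the injuries in limma, where the smallest was 0.466.

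Sensory neuron markers, of which 2 were measured, were the only list of more than 1 member with none above 0. MiR-182 was at −0.28, as given above, and miR-183 was close to 0, at −0.03. Neither had a p under 0.05. The list median was −0.16, or 0.26 in L3-DRG and −0.57 in L4-DRG. The summed level of both ran from 1.88 to 2.09 in Sham and from 1.02 to 2.59 in SNI. The 4 general neuron markers had a median of 0.09, with miR-218 at 0.28 and miR-129-3p at −0.87 at the ends. The 9 miRs of the let-7 family, which share the seed GAGGUAG and restrain growth genes such as Lin28, were above 0 in 7 cases with a median of 0.29, among them let-7a at 0.44 (0.081 without L3-DRG Sham replicate 2) and let-7d at 0.38 (0.10 without L3-DRG Sham replicate 1). Of the 25 measured miRs of the imprinted Dlk1-Dio3 cluster 19 were above 0, with a median of 0.13 and a range of −0.47 to 0.47. Those with the smallest p were miR-495 at 0.36, miR-431, miR-380-5p and miR-376c at 0.30.

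The smaller families had medians from 0.12 to 0.35. The miR-26 family had a median of 0.31 (miR-26b at 0.42), the cluster of miR-191 and miR-425 0.33 (miR-425 at 0.37 and miR-191 at 0.30), the miR-99/100 and miR-125 families 0.24 (miR-125b-5p at 0.46) and the HOX cluster miRs 0.29. The miR-130 family stood at 0.33, the X-linked cluster of miR-351 and miR-450a at 0.35, the clusters of miR-23b, miR-24 and miR-27 at 0.24 and the miR-30 family at 0.12. The 2 endothelial markers had a median of 0.17, with miR-126-5p at 0.31. The single measured markers of red blood cells, myelinating glia and hypoxia were at 0.30, 0.03 and −0.05.

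**Figure D5:**
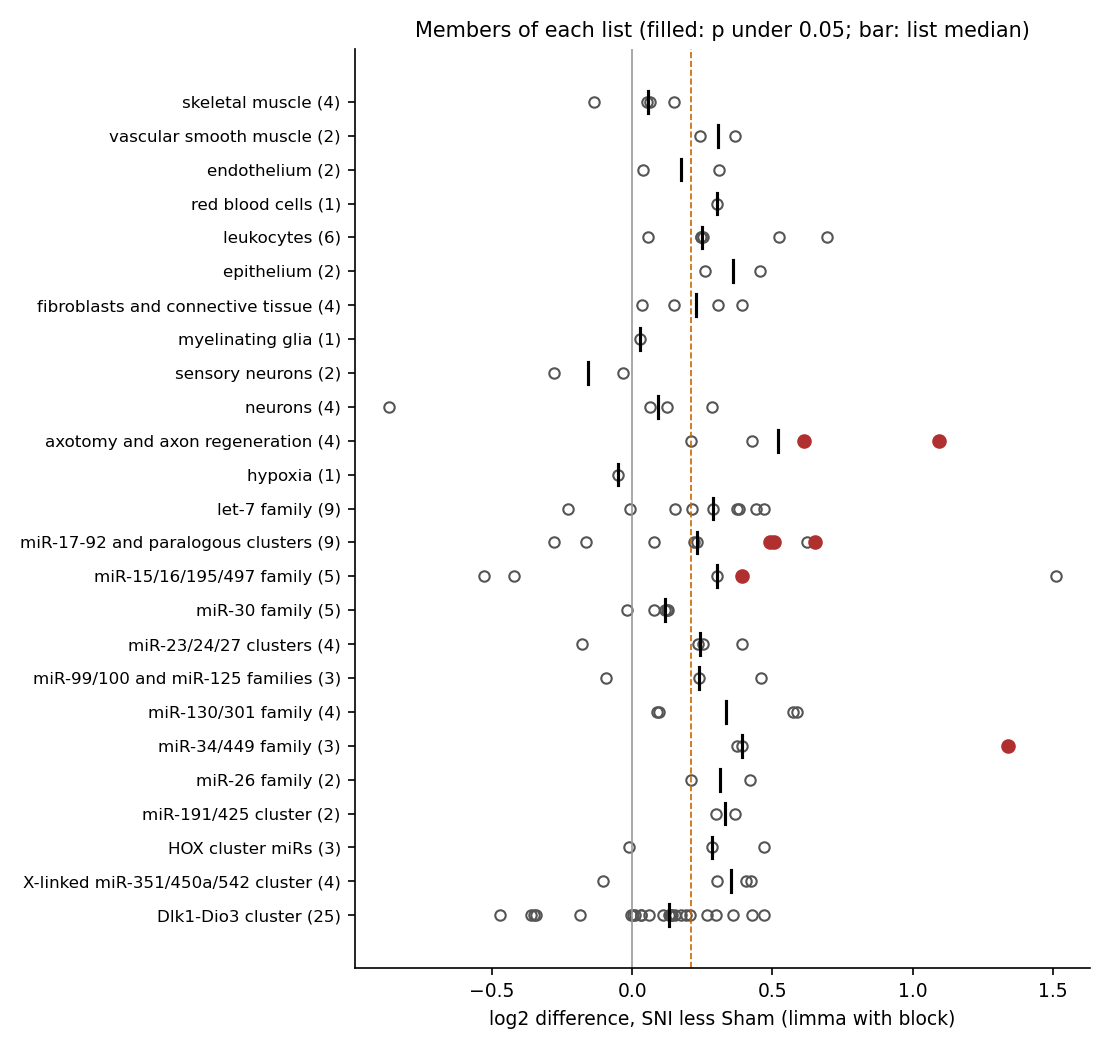
Log2 difference of SNI from Sham (x axis) of the measured members of each of the 25 lists (y axis, number measured in brackets), with members at an unadjusted p under 0.05 filled in red, the list median as a bar and the median of the 154 miRs dashed at 0.21. The axotomy list has the highest median of those with more than 1 member, 0.52. The sensory neuron list, with 2 members at −0.28 and −0.03, is the only such list with no member above 0. Of all 154 miRs 33 are below 0.

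The precision bounds what these arrays could show. The median standard error of a miR was 0.27 and the median half-width of its 95% confidence interval 0.61 on the log2 scale. For 95 of the 154 miRs the whole interval lay within 1 of no difference, and 4 miRs, all higher, had an estimate beyond 1.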

How the data were processed

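The data are Ct values of TaqMan rodent miR cards run for 40 cycles with no Ct limit. Per the labels and methods, the authors deposited Ct values without normalization (a PCR cycle, taken here as a log2 quantity) for 154 miRs detected on all 12 arrays, with wells of MammU6 (4), snoRNA135 and U87. The deposited fold changes, linear ratios of 2 to the power of −ΔΔCt against Sham, were used only as a check: the mean of the 8 log2 values lay within 0.01 of the difference given here for 153 of 154 miRs. Of the miR assays 147 carry a mouse name and 7 a rat name. No depth exists for Ct, so the number of arrays limits the precision.

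SNI was compared with Sham by limma 3.58.1 (lmFit and eBayes, R 4.3.3), two-sided, Benjamini-Hochberg over 154 miRs, with DRG level and number as a block (7 residual and 2.92 prior degrees of freedom). The numbers pair the arrays: deviations from group means correlated at 0.465 to 0.81 over the 12 pairs of like level and number, and at −0.789 to −0.511 over the 24 pairs of different number. Pairs of like number but different level were not compared, so this check bears on the number and not on the level. Taking deviations from group means also pushes the values across numbers below 0 where the numbers differ. The pooled fit was also run on simulated data, with 30 of the 154 miRs raised by a known size. At an adjusted p under 0.05 it recovered 0.83% of them at a log2 size of 0.5. The share was 54.7% at a size of 1 and 91.7% at 2. Sequences came from RefSeq (GRCr8).

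Named miRs are up to 12 per direction by p, the 3 largest differences per direction, up to 4 of each of 25 lists, and others where stated. The lists and the comparison were chosen with earlier results of these data known. The alternatives were other references, Ct limits of 35 and 32, other treatments of the block, level and variance, and leaving out each array. Python 3.11.15, pandas 2.3.3 and matplotlib 3.10.9 were used.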

Additional observations from a re-analysis of the deposited data

Results flagged for a closer look

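A single array stood far from the rest of its group for 3 of the lower miRs, where chance sets apart about 1 group in 20. MiR-217 was at −7.19 in L3-DRG Sham number 2 and, taken against its own Sham array, at −2.66 in L4-DRG Sural-SNI number 2. MiR-672 was at −4.65 in L4-DRG Tibial-SNI number 2, and miR-685 at −6.66 in L3-DRG Tibial-SNI number 2. Both were weak signals on those arrays, with a Ct of 36.4 for miR-672 and 37.5 for miR-685.

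For 3 miRs the difference from Sham depended on the injury or the DRG level at an adjusted p under 0.05 in limma, so their pooled means describe neither side. MiR-325 was 1.49 lower in Tibial-SNI than in Sural-SNI (−1.485 as fitted, adjusted p = 0.00365), with all 4 Sural-SNI arrays above Sham and all 4 Tibial-SNI arrays below. MiR-325 was itself a weak signal, with a −ΔCt of −9.13 on L3-DRG Tibial-SNI number 1, and its values here rest on the arrays alone. The difference from Sham in L4-DRG less that in L3-DRG was −2.80 for miR-34a and −1.67 for miR-127 (adjusted p = 0.0355 for each). Both had all 4 L3-DRG SNI arrays above Sham and all 4 L4-DRG SNI arrays below, at 1.77 and −1.02 on average for miR-34a and 0.83 and −0.84 for miR-127.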

How the results depend on the processing

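No adjusted p was under 0.05 in any of the 14 alternatives or the 12 fits that each left out an array, and the median difference stayed above 0, from 0.08 to 0.27 with an array left out. With the replicate block 10 miRs were higher at an unadjusted p under 0.05. This count was 2 without the block and with the DRG level as a covariate, and 3 without both. It was 4 with MammU6 alone, 3 with the mean of all miRs and 6 with L3-DRG and L4-DRG averaged per number. With Ct of at most 32 on all arrays only 87 miRs were tested, and 6 were higher. Of the 10 miRs, 5 were among the 87, and all 5 stayed under 0.05. The count of lower miRs, 0, became 4 with the mean of all miRs and 1 with the averaged levels. With an array left out the higher count ran from 5 to 16 and the lower from 0 to 1. It was 5 without L3-DRG Sham replicate 1, 6 without L3-DRG Sham replicate 2 or L3-DRG Tibial-SNI replicate 1, and 16 without L4-DRG Sham replicate 2. Leaving out a Sham array also takes the SNI arrays of its block out of the comparison.

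Of 61 miRs recomputed, 48 kept their sign throughout. With the mean of all miRs for reference the sign turned for the rat assay of miR-1 (−0.045), miR-133a (−0.13), miR-133b (−0.14), miR-20a (−0.12) and miR-340-3p (−0.090). With an array left out, the range crossed 0 for the following, none of which had a p under 0.05 in the comparison. These were miR-20a (−0.14 to 0.40), miR-20b (−0.71 to 0.19), miR-93 (−0.70 to 1.74), miR-106b (−0.43 to 0.051), miR-340-3p (−0.38 to 0.40), miR-34a (−0.33 to 0.93), miR-139-3p (−0.69 to 0.076), let-7e (−0.62 to 0.034), miR-497 (−0.84 to 0.26), miR-133a (−0.33 to 0.32), miR-133b (−0.35 to 0.38) and miR-1 (−0.41 to 0.45 with the rat and −0.42 to 0.12 with the mouse assay).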
